A study of Rattus norvegicus with 12 samples.

Results

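The muscle miRNAs of the miR-1/206 and miR-133 families were examined in the rat left ventricle after myocardial infarction. A member was any miRNA whose name on the array was one of 6 listed names, namely rno-miR-1-3p, rno-miR-206-3p, rno-miR-133a-3p, rno-miR-133a-5p, rno-miR-133b-3p and rno-miR-133c (rno- stands for rat and is left out in what follows where no doubt arises). All 6 were among the 758 rat miRNAs on the array. Total miRNA had been extracted from left ventricle near the infarct of male Wistar rats, labelled with the single dye Cy3, and measured on 12 arrays, 4 in each of 3 groups. The MI group had the left anterior descending coronary artery tied, were kept for several weeks, and then received physiological saline. The Sham group had the same operation with no ligature and received saline. The YQFM group had the ligature and received Yiqifumai powder injection, an injected herbal preparation, at 5 mg/kg/d, and the treatment lasted 28 days. Ages and infarct sizes of the rats behind the arrays are not given in the sources used here, and every value describes tissue beside a surgical scar, not isolated muscle cells.

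MiRNAs are short RNAs that pair with target mRNAs mainly through a seed near the 5′ end and lower the output of those mRNAs. MiR-1 and miR-133a are cut from shared primary transcripts in heart and skeletal muscle, where miR-1 acts on regulators of muscle differentiation such as Hand2 and miR-133a on serum response factor and on growth of heart muscle cells. MiR-206 and miR-133b come from another shared transcript that is best known from skeletal muscle.

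The mature sequences are shown because the members fall into sets that an array must tell apart by a base or a strand. They are those of RefSeq (GRCr8), which held all 6 members, and are written 5′ to 3′ with the seed, bases 2 to 8, in capitals.
miR-1-3p: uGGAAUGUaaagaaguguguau
miR-206-3p: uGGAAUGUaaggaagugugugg
miR-133a-3p: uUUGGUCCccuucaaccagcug
miR-133b-3p: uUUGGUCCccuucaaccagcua
miR-133a-5p: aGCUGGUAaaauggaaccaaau
miR-133c: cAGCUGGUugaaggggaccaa
MiR-1-3p and miR-206-3p shared the seed GGAAUGU, which on this array was carried by 3 miRNAs, the other being miR-1b. Counted from the 5′ end, miR-206-3p differed from miR-1-3p by A11G, A21G and U22G. MiR-133a-3p and miR-133b-3p shared the seed UUGGUCC and differed only by G22A, at the last base. MiR-133a-5p, the opposite arm of the miR-133a hairpin, shared its seed with no other miRNA on the array.

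MiR-133c was a case of its own. It carried the family name, yet its 21 bases were the full reverse complement of bases 2 to 22 of miR-133a-3p, in capitals here.
miR-133a-3p, stretch complementary to miR-133c: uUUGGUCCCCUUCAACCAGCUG
RefSeq places miR-133c at chr18:2157886-2157906 on the plus strand, in the gene Mir3582, and miR-133a-3p at chr18:2157886-2157907 on the minus strand, in Mir133a1. By this placement miR-133c is an antisense transcript of the locus, with a seed, AGCUGGU, that no other miRNA on the array shared. The array annotation, on the older build rn4, instead places the miR-133c probes over the miR-133a-5p arm. The letters of these probes pair with miR-133c as printed above. Mir1 lies 2368 bases from Mir133a1, and both lie within the coordinates of Mib1, a protein-coding gene for a ubiquitin ligase of Notch signalling, at chr18:2075309-2199774. Mir206 and Mir133b are 3801 bases apart on chromosome 9, within the coordinates of the long non-coding RNA LOC120094648 at chr9:30582052-30595926. An antisense partner exists for miR-1-3p too, miR-3571, with 21 of its bases complementary to bases 1 to 21 of miR-1-3p, but miR-3571 was detected on none of the arrays.

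Each miRNA was read by probes of nested length, most members by 2 probes with 8 spots each per array. A miRNA counted as detected on an array if, for any of its probes, over 50% of the spots stood well clear of background. Levels are log2 of the mean processed signal after each array was brought to a common 75th percentile, taken over 201 miRNAs that every array detected, with a floor of 2.38. Probes differ in affinity, so levels are compared between arrays for 1 miRNA and not between miRNAs. All members but miR-206-3p were detected on all 12 arrays. MiR-206-3p was detected on 10, missing 1 Sham and 1 MI array. Depth here means signal over background: per array, 24.4% to 31.6% of spots stood well clear of background, and saturated spots were absent.

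The placing of the arrays limits every comparison with the MI group. The 12 arrays came from 3 slides scanned on 1 day. Slide 1 held MI 1, MI 2 and MI 3, slide 2 held MI 4 and YQFM 1, and slide 3 held the 4 Sham arrays with YQFM 2, YQFM 3 and YQFM 4. MI and Sham arrays never lay on the same slide, so slide and group cannot be told apart in MI against Sham except through slide 2. The source names of MI 4 and Sham 4 give another group than their titles, descriptions and group entries, which were followed here. The labels do not tie an array to a numbered animal, so p-values measure the spread between these arrays. In this bulk tissue, fewer cells of a type and less RNA per cell cannot be told apart.

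MiR-133c was the 1 member that passed the test, with lower signal in the MI group than in the Sham group. The other 5 members, which include the main cardiac miRNAs miR-1-3p and miR-133a-3p, did not pass in any comparison. Over all 263 miRNAs tested by limma with Benjamini-Hochberg adjustment at 0.05, 19 passed between MI and Sham, which was 7.22%, and 18 of these, 6.84%, were lower in MI. The 1 call among 6 members is a value of miR-133c and not of the family: the median log2 ratio was -0.11 over the 6 members and -0.04 over all 263 miRNAs, with 4 of 6 members lower in MI. In YQFM against MI and in YQFM against Sham no miRNA passed (0% each), while 50 and 15 of the 263 had an unadjusted p under 0.05, of which 1 and 0 were members. The medians over members and over all miRNAs were -0.08 and -0.01 in YQFM against MI and -0.14 and -0.11 in YQFM against Sham. Between MI and Sham the unadjusted counts were 77 miRNAs and 2 members.

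**Figure D1:**
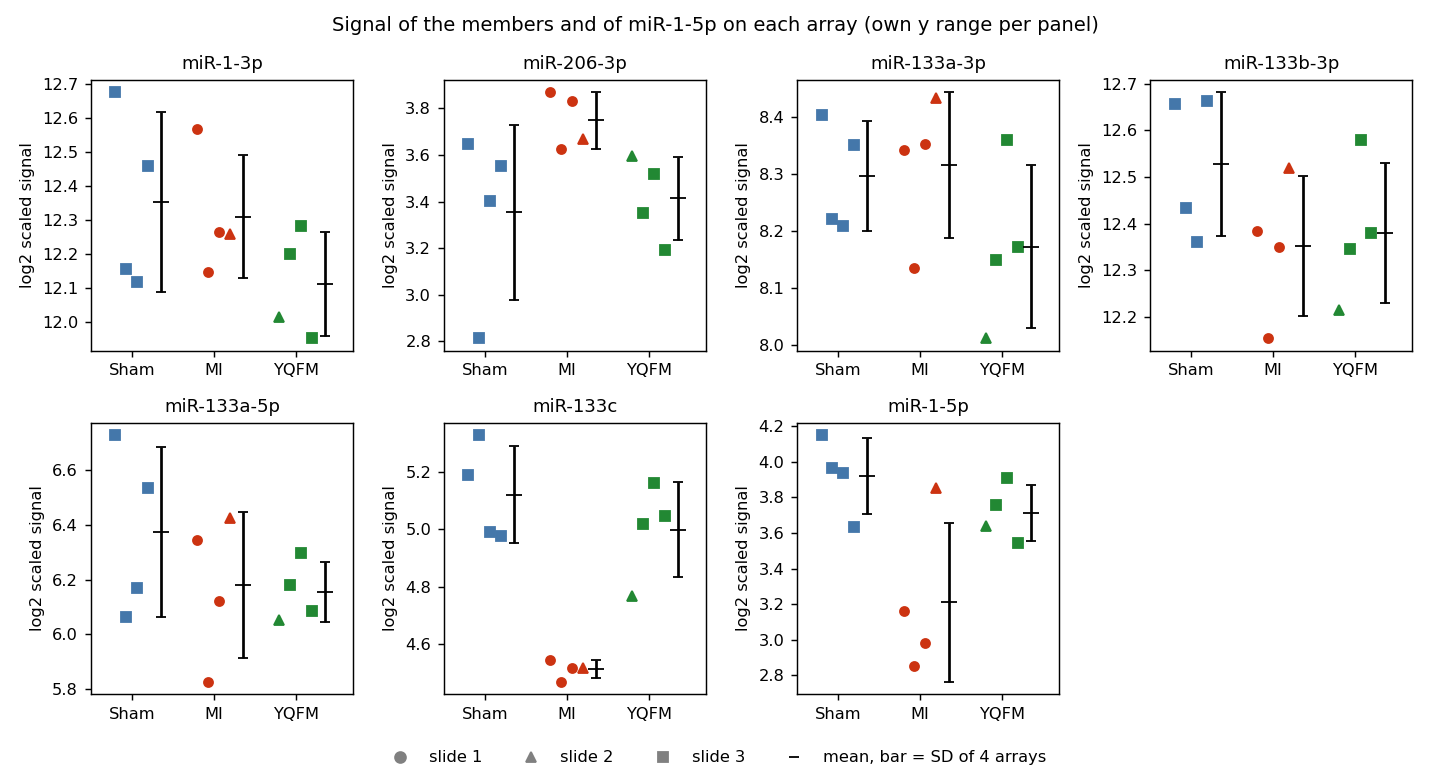
Log2 scaled signal (y axis, own range per panel) of the 6 members and of miR-1-5p on each array, in the Sham, MI and YQFM groups (x axis), with points for arrays, shapes for slides and bars for mean and SD. The 4 MI points of miR-133c, 4.47 to 4.55, lie below all 8 others, while the groups of miR-1-3p, miR-133a-3p, miR-133a-5p and miR-133b-3p overlap.

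Rno-miR-1-3p, known as an abundant miRNA of heart muscle, had log2 levels of 12.67, 12.16, 12.12 and 12.46 on Sham 1 to 4. They were 12.57, 12.15, 12.26 and 12.26 on MI 1 to 4, and 12.02, 12.20, 12.28 and 11.95 on YQFM 1 to 4. The 3 groups overlapped, with means of 12.35 ± 0.26, 12.31 ± 0.18 and 12.11 ± 0.15 (SD, n = 4 each). MI against Sham gave a log2 ratio of -0.04, with a 95% confidence interval from -0.36 to 0.27 (adjusted p = 0.899, limma). YQFM was lower than MI by a log2 ratio of -0.20, interval -0.51 to 0.12, and the adjusted p of 0.519 missed the threshold. For MI against Sham the interval spans folds from 0.780 to 1.21, so equal levels were not shown.

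Rno-miR-133a-3p, which shares the primary transcript with miR-1-3p, had overlapping groups with SDs of 0.10 (Sham), 0.13 (MI) and 0.14 (YQFM). Its log2 levels were 8.40, 8.22, 8.21 and 8.35 in Sham, 8.34, 8.13, 8.35 and 8.43 in MI, and 8.01, 8.15, 8.36 and 8.17 in YQFM. MI and Sham differed by 0.02, with a 95% interval of -0.20 to 0.24 (adjusted p = 0.943, limma), and YQFM and MI by -0.14, interval -0.36 to 0.07 (adjusted p = 0.515, limma).

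Rno-miR-133a-5p, the other arm of that hairpin, was at 6.73, 6.06, 6.17 and 6.54 in Sham, 6.35, 5.83, 6.12 and 6.42 in MI, and 6.05, 6.18, 6.30 and 6.09 in YQFM. The ratio of MI to Sham was -0.19, interval -0.56 to 0.17 (adjusted p = 0.492, limma), and that of YQFM to MI was -0.03, interval -0.40 to 0.34 (adjusted p = 0.961, limma). Its groups overlapped throughout.

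Rno-miR-133b-3p was at 12.66, 12.43, 12.36 and 12.66 in Sham, 12.38, 12.15, 12.35 and 12.52 in MI, and 12.22, 12.35, 12.58 and 12.38 in YQFM. MI against Sham gave -0.18, interval -0.43 to 0.07 (adjusted p = 0.325, limma), and YQFM against MI gave 0.03, interval -0.22 to 0.28 (adjusted p = 0.951, limma). The probes of miR-133b-3p cover all but the first few bases of the miRNA, end on its last base, and differ at that base from the miR-133a-3p probes. Since the members differ by G22A alone, cross-hybridisation between their probes was not tested and their signals are not taken as independent.

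Rno-miR-206-3p, a miRNA best known from skeletal muscle, was close to the lower end of the measured range. Its log2 levels were 3.65, 2.81, 3.40 and 3.55 in Sham, 3.87, 3.62, 3.83 and 3.67 in MI, and 3.59, 3.35, 3.52 and 3.19 in YQFM, against the floor of 2.38. The lowest of the MI arrays lay just under the highest Sham array, and all 4 MI arrays lay above all 4 YQFM arrays. MI against Sham gave 0.39, interval 0.02 to 0.77, and the adjusted p of 0.147 by limma missed the threshold (unadjusted p = 0.0413). The exact permutation test of the same values gave p = 0.0571 (two-sided). YQFM against MI gave -0.33, interval -0.71 to 0.04 (adjusted p = 0.324, limma). Its probes disagreed: the 15-base probe gave 0.64 for MI against Sham (adjusted p = 0.0385 over 524 probes, limma) and the 16-base probe gave 0.18 (adjusted p = 0.586, limma), against 8.97% of all probes called. The 15-base probe was detected on 0 Sham, 3 MI and 2 YQFM arrays. It thus entered the test only through the MI and YQFM groups, and no support is drawn from its adjusted p.

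Rno-miR-133c, the antisense member, was at 5.19, 5.33, 4.99 and 4.98 in Sham, at 4.55, 4.47, 4.52 and 4.52 in MI, and at 4.77, 5.02, 5.16 and 5.05 in YQFM. Every MI array lay below every Sham and every YQFM array, and the MI arrays had a mean of 4.51 ± 0.03 (SD, n = 4). Groups without overlap were found for 12.2% of the 263 miRNAs in MI against Sham and for 6.46% in YQFM against MI. Of the members, miR-133c was without overlap in the first comparison and miR-133c and miR-206-3p in the second. MI against Sham gave -0.61 (SE 0.106, 95% interval -0.84 to -0.37, adjusted p = 0.0105, limma), a fold of 0.657 with an interval of 0.558 to 0.772. YQFM against MI gave 0.48 (SE 0.106, interval 0.25 to 0.72), a fold of 1.40, and the adjusted p of 0.0786, tied with other miRNAs for the smallest of the 263, missed the threshold (limma). The exact permutation p was 0.0286 in both, the smallest that 4 arrays against 4 allow (two-sided). In YQFM against Sham, where groups without overlap made up 6.08% and no member was among them, miR-133c gave -0.12, interval -0.36 to 0.11 (adjusted p = 0.689, limma). The other members gave log2 ratios between -0.24 and 0.06 there, each with an adjusted p of at least 0.664 by limma.

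With slide as a fixed block the log2 ratio of miR-133c in MI against Sham was -0.30. Slide 1 held MI arrays only, so in that fit MI 1 to 3 do not enter the value. It rests on MI 4, an array with a conflicting source name, as its 1 MI array. With slide as a random block the ratio was -0.48 (adjusted p = 0.463, limma). MI 4 and YQFM 1, the arrays of slide 2, alone link the MI group to slide 3. On slide 2, YQFM 1 was above MI 4 by 0.25, a difference with no test. On slide 3, YQFM 2 to 4 differed from the Sham arrays by -0.05. The normexp background correction, which adds an offset of 50 to each signal, took the MI against Sham value to -0.20 (adjusted p = 0.470, limma). The scaled signal of miR-133c was 22.2 to 40.1 in the main setting. An added constant of that order shrinks the log2 ratio of a dim miRNA, and normexp without it was not tested. The MI against Sham value stayed below 0 under all 32 alternatives and passed the test under 22 of them, among them all 12 fits that leave out 1 array. Many of these alternatives could not move the ratio. It stayed at -0.61 with the changed filters, floor, moderation and test, with the replicate block, and with only the groups compared. Leaving out any YQFM array did not move it either. The count of signs is thus no measure of robustness. YQFM against MI stayed above 0 under all 33 alternatives and passed under 4, which were the fits without MI 4 (adjusted p = 0.0237, limma), without YQFM 1 (adjusted p = 0.0226), without MI 4 and Sham 4 (adjusted p = 0.0317), and that with right-side spots described further on. Here too many alternatives could not move the ratio of 0.48, and slide as a fixed block only repeats the 0.25 of slide 2.

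**Figure D2:**
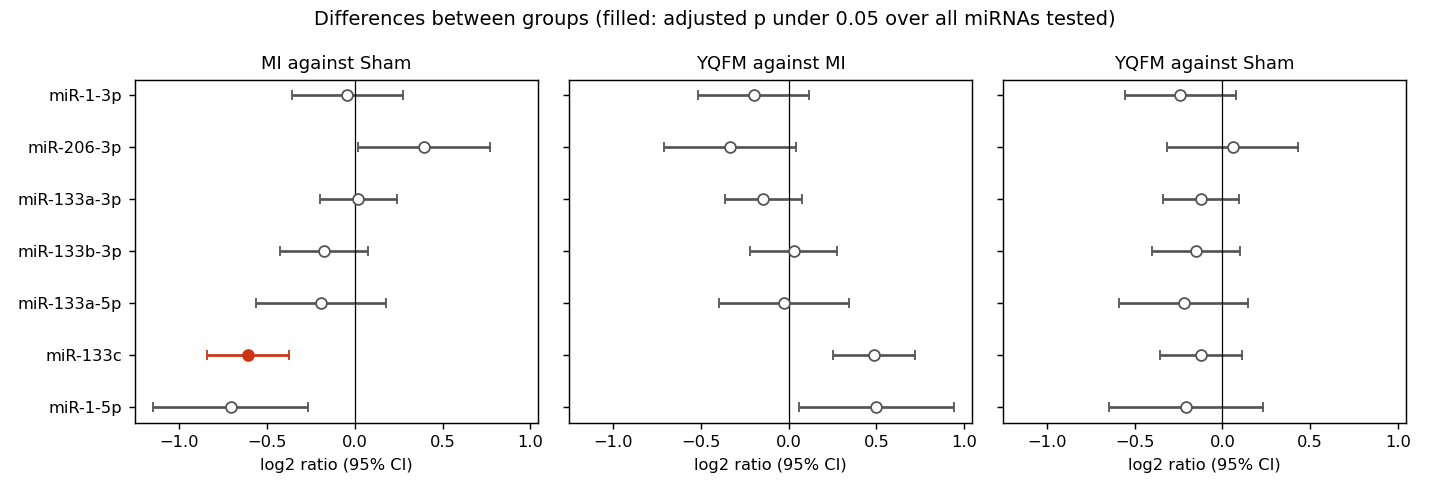
Log2 ratios (x axis) with 95% confidence intervals for each member and miR-1-5p (y axis) in the 3 comparisons, with filled points where the adjusted p was under 0.05 over all miRNAs tested. The filled point among the members is miR-133c in MI against Sham, at -0.61, and most other intervals span 0.

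The 2 probes of miR-133c differed in how far they moved. The 16-base probe gave -0.74 in MI against Sham (adjusted p = 0.0134, limma over probes) and 0.61 in YQFM against MI (adjusted p = 0.0494), where 2.67% of the probes were called. The 15-base probe gave -0.35 (adjusted p = 0.111) and 0.23 (adjusted p = 0.446) in the same fits by limma. Both had the same sign. No probe was called in YQFM against Sham (0%). The letters of these probes, which pair with miR-133c, are those of miR-133a-3p itself.
miR-133c, 15-base probe: ttggtccccttcaac
miR-133c, 16-base probe: ttggtccccttcaacc
The shorter probe repeats bases 2 to 16 of miR-133a-3p and the longer one bases 2 to 17, in DNA letters.

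The single spots of miR-133c varied with their place on the array, and more than those of the other members. An array has 82 columns of spots, and miR-133c has 10 spots in columns 1 to 41, here the left side, and 6 on the right side. The spots of the 16-base probe varied by a median coefficient of variation of 40.5%, against a median of 11.1% for 163 probes within a factor of 2 of its signal, of which 4 varied more. The probes of the other members that were detected on all arrays varied by 1.104% to 7.72%.

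On the right side, the mean scaled signal of the 16-base probe was 58.6 to 81.4 on the Sham arrays and 43.3 to 75.005 on the YQFM arrays. It was 19.5 to 25.4 on the 3 MI arrays of slide 1 and 44.0 on MI 4. On the left side it was 32.998 to 41.7 on Sham, 30.5 to 39.8 on YQFM, 26.4 to 35.9 on the 3 MI arrays of slide 1 and 23.3 on MI 4. Thus the right side was the brighter one on all Sham and YQFM arrays and on MI 4, and the dimmer one on MI 1, MI 2 and MI 3.

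As a log2 ratio of right to left, the 16-base probe gave 0.78, 1.05, 0.78 and 0.94 on Sham 1 to 4, and 0.50, 1.01, 0.91 and 0.83 on YQFM 1 to 4. It gave -0.88, -0.56 and -0.06 on MI 1 to 3 and 0.92 on MI 4. MI 4, the 1 MI array outside slide 1 and 1 of the 2 with a conflicting source name, was among the Sham and YQFM values. With a single such array, slide and group cannot be told apart here. Slide 1 averaged -0.50 and the other slides 0.86, a difference of -1.36, while the median difference over the 270 probes detected on all arrays with spots on both sides was -0.11. Of these probes, 7 had a lower difference. The columns were examined after the values of miR-133c had been seen, so these are descriptions.

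Spot by spot, the fall in MI took in all right spots and part of the left spots. All 6 right spots were lower in MI than in Sham, 5 of them without overlap, with a median log2 ratio of -1.39. Of the 10 left spots, 4 were lower, 3 of them without overlap, and 6 were higher, none without overlap, with a median of 0.19 and a range from -1.20 to 0.52. The lower left spots lay at columns 14 to 28, in rows 1 to 39 of the array. The higher ones lay at columns 2 to 23, in rows 69 to 143 except that at column 7 in row 39. The right spots lay in rows 1 to 62, except that at column 61 in row 139, which gave -0.26 with overlap. Column 41 was thus not where the signs changed, and the split by side does not part column from row. In YQFM against MI, 6 of 6 right spots and 4 of 10 left spots were higher. On slide 2 alone, YQFM 1 exceeded MI 4 at 12 of 16 spots, 8 of 10 on the left and 4 of 6 on the right.

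With the whole table refitted from left spots only, an alternative added after the data were seen, miR-133c in MI against Sham gave -0.33 (SE 0.137, adjusted p = 0.1503, limma). From right spots only it gave -1.12 (SE 0.203, adjusted p = 0.00823, limma), and from the median over spots -0.64 (adjusted p = 0.0145, limma). In YQFM against MI the left spots gave 0.20 (adjusted p = 0.478, limma) and the right spots 1.02 (adjusted p = 0.0209, limma). The call in MI against Sham was thus present with right spots and absent with left spots, and so it was in YQFM against MI. Left and right spots also differed in row, so these refits do not part column from row. Which step of hybridisation, washing or scanning the columns or rows stand for was not tested.

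**Figure D3:**
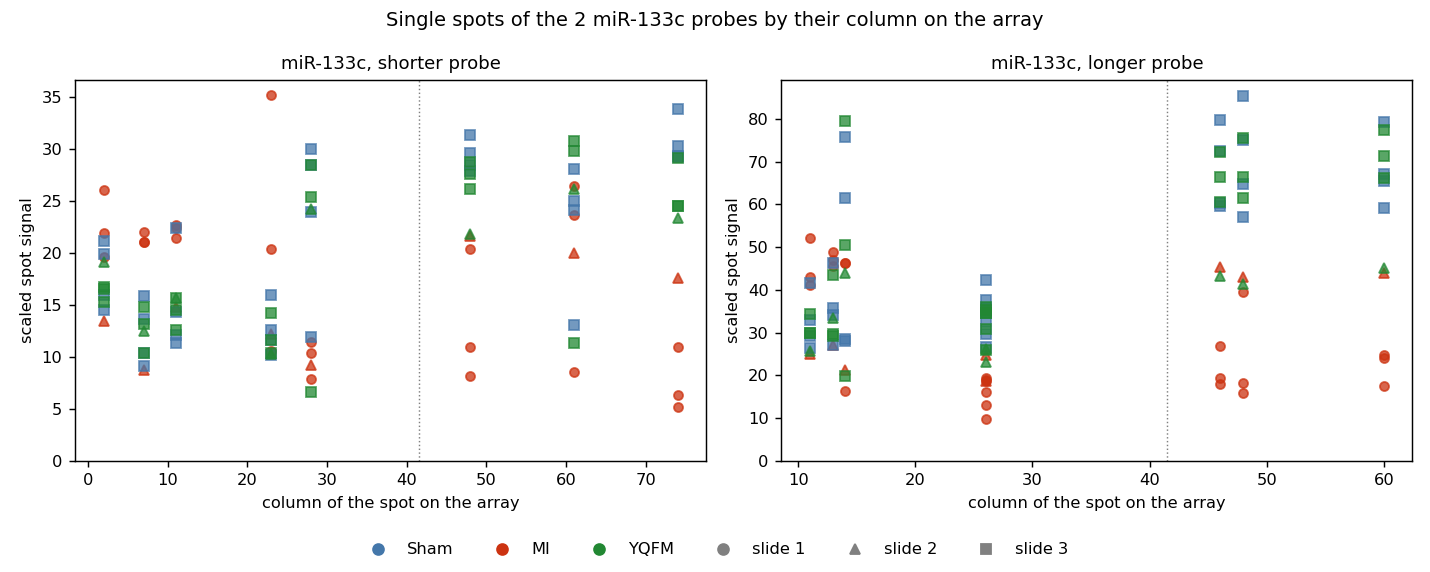
Scaled signal (y axis, linear, own range per panel) of each spot of the 2 miR-133c probes against its column on the array (x axis), with colours for groups, shapes for slides, and a dotted line between columns 41 and 42 that parts the left from the right side. Right of the line the spots of MI 1 to 3 lie under those of Sham except at column 61 of the shorter probe, and left of it higher and lower MI spots both occur.

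MiR-206-3p also differed by side. All 10 of its left spots were higher in MI than in Sham, with a median log2 ratio of 0.58, and 4 of 6 right spots were, with a median of 0.10. Refits gave 0.48 from left spots (adjusted p = 0.112, limma) and -0.04 from right spots. The 15-base probe of miR-133a-3p showed the same kind of split at a smaller size, with log2 ratios of right to left of 0.17 ± 0.07 (SD, n = 4) on the Sham arrays, -0.05 ± 0.17 on the MI arrays and 0.18 ± 0.05 on the YQFM arrays. The MI values were -0.11, -0.26 and 0.02 on MI 1 to 3 and 0.14 on MI 4, the last among the Sham and YQFM values. Over both probes of miR-133a-3p, 10 of 11 left spots were higher in MI than in Sham, with a median of 0.04, and 5 of 5 right spots were lower, with a median of -0.22. Refitted from left spots, with that side scaled on its own, miR-133a-3p gave -0.07, so the sign on the left depended on the scaling. For miR-133b-3p both sides gave alike values, MI against Sham ranging from -0.20 to -0.08 over left spots and from -0.26 to -0.08 over right spots.

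Ratios between members on the same array do not depend on the scaling between arrays. Pairs were chosen by their relation, with earlier results of these data known. In the 4 pairs tested, over 3 comparisons and thus 12 exact two-sided permutation tests, no p adjusted over the 12 was under 0.0857, which is what the smallest possible p of 0.0286 became. A further pair, miR-206-3p over miR-133b-3p, was not tested, since miR-206-3p was not detected on all arrays of the Sham and MI groups. MiR-133c over its sense partner miR-133a-3p gave log2 ratios of -3.18 ± 0.20 (SD, n = 4) on the Sham arrays, -3.80 ± 0.11 on the MI arrays and -3.17 ± 0.06 on the YQFM arrays. MI against Sham differed by -0.63 and YQFM against MI by 0.63, both without overlap, and 0.00 for YQFM against Sham (exact permutation p = 1). These ratios carry the same side dependence as miR-133c itself. On slide 2 they were -3.92 on MI 4 and -3.24 on YQFM 1.

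The pair that differs by 1 base gave the steadiest ratio. MiR-133b-3p over miR-133a-3p was 4.23 ± 0.07 (SD, n = 4) on the Sham arrays, 4.04 ± 0.04 on the MI arrays and 4.21 ± 0.01 on the YQFM arrays. MI was lower than Sham by a log2 ratio of -0.20 and YQFM higher than MI by 0.17, both without overlap (exact permutation p = 0.0286, adjusted p = 0.0857 over 12). On slide 2 the ratio was 4.09 on MI 4 and 4.20 on YQFM 1. Neither miRNA passed on its own, the ratio missed the threshold after adjustment, and the right-to-left split of miR-133a-3p goes into it.

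For the 2 arms of the miR-133a hairpin and the 2 miRNAs of its transcript, the groups overlapped and no test passed. MiR-133a-5p over miR-133a-3p was -1.92 ± 0.22 (SD, n = 4) on the Sham arrays, -2.14 ± 0.16 on the MI arrays and -2.02 ± 0.06 on the YQFM arrays, with a smallest adjusted p of 0.411 by exact permutation. MiR-1-3p over miR-133a-3p was 4.06 ± 0.17, 3.99 ± 0.17 and 3.94 ± 0.12, with a smallest adjusted p of 0.588 by exact permutation.

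**Figure D4:**
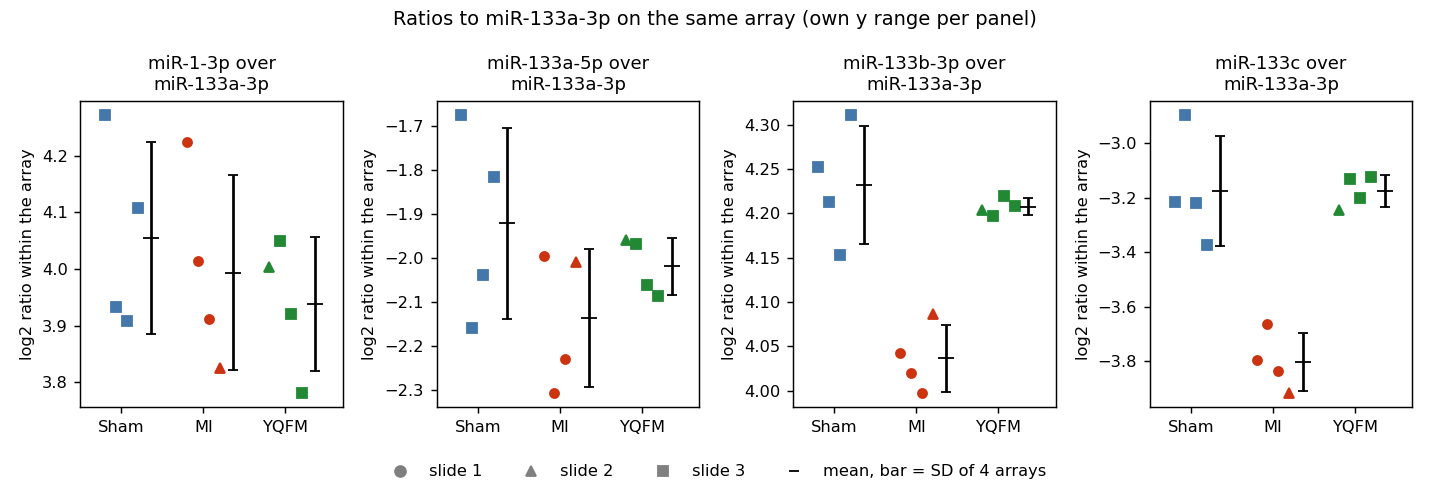
Log2 ratio to miR-133a-3p on the same array (y axis, own range per panel) in the Sham, MI and YQFM groups (x axis), with points for arrays and bars for mean and SD. The MI arrays lie below the others for miR-133c and, over a smaller range, for miR-133b-3p.

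As a share of the summed signal of all miRNAs on an array, the 6 members made up 13.4% to 17.9%. The share was 16.9% ± 0.87 (SD, n = 4) on the Sham arrays, 16.3% ± 1.00 on the MI arrays and 16.0% ± 1.82 on the YQFM arrays. The exact permutation p was 0.429 between MI and Sham, 0.743 between YQFM and MI, and 0.514 between YQFM and Sham. Nearly all of it came from miR-1-3p, at 6.0005% to 8.36%, and miR-133b-3p, at 6.89% to 9.31%. MiR-133c made up 0.0321% to 0.0643%. These shares are of probe signal, which depends on probe affinity, and are not shares of molecules.

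Across the 12 arrays the other members detected throughout each had at least 1 member among their most alike miRNAs, and miR-133c had none. For each of the 5 members detected on all arrays, the 3 miRNAs with the highest Pearson's r were taken out of 200. For miR-133a-3p they were miR-133b-3p (r = 0.78, Spearman's rho = 0.79), miR-133a-5p (r = 0.75, rho = 0.77) and miR-1-3p (r = 0.73, rho = 0.73). MiR-133a-5p led the list of miR-1-3p (r = 0.81) and of miR-133b-3p (r = 0.89), and its own list was led by miR-3473 (r = 0.93). The rest of the list of miR-1-3p lay outside the family, with miR-99b-3p and miR-20a-5p. Those of miR-133b-3p and miR-133a-5p both held miR-3473 and miR-139-3p, also from outside it.

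For miR-133c the list held none of the family: miR-292-5p (r = 0.96, rho = 0.84), miR-320-3p (r = 0.92, rho = 0.88) and miR-3593-3p (r = 0.92, rho = 0.85). Its r was -0.04 with its sense partner miR-133a-3p, 0.00 with miR-1-3p, 0.25 with miR-133a-5p, 0.49 with miR-133b-3p and -0.73 with miR-206-3p. The arrays share slides and groups, so these values describe the 12 arrays and carry no test. The probes of miR-292-5p and miR-3593-3p with spots on both sides also had a lower right-to-left ratio on slide 1 than on the other slides, by -0.84 to -0.52. So did those of miR-99b-3p, which is in the list of miR-1-3p (r = 0.79) and not of miR-133c, by -0.53 and -0.44.

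The opposite arm of miR-1, miR-1-5p, is no member by the naming rule but comes from the same hairpin as miR-1-3p. It was detected on 4 Sham, 1 MI and 4 YQFM arrays, and so entered the test only through the Sham and YQFM groups. Its log2 levels were 4.15, 3.96, 3.93 and 3.63 in Sham, 3.16, 2.85, 2.98 and 3.85 in MI, and 3.64, 3.75, 3.91 and 3.54 in YQFM. MI 4, the MI array outside slide 1, lay within the Sham range. The other MI arrays lay below that range and near the floor of 2.38. MI against Sham gave -0.71 (interval -1.15 to -0.27, adjusted p = 0.0520, limma). With slide as a fixed block, where MI 4 is the only MI array that enters the value, it gave 0.03. Of the other relatives, miR-206-5p and miR-133b-5p were detected on none of the arrays.

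The tissue label was checked against lists of cell type miRNAs. Of 6 cardiomyocyte miRNAs of the myosin genes, 3 were detected on some array, miR-499-5p on all 12, while miR-208b-3p, miR-208b-5p and miR-499-3p were detected on none. Their summed level was 6.12 to 6.57 (log2) in Sham, 5.45 to 6.31 in MI and 5.97 to 6.18 in YQFM, and of the 2 tested, miR-208a-5p was called in MI against Sham, at -1.04 (adjusted p = 0.00678, limma), where 7.22% of all miRNAs were called. MiR-208a-5p was detected on 4 Sham, 1 MI and 4 YQFM arrays and entered the test only through the Sham and YQFM groups, and its MI levels of 2.81 to 3.32 lay near the floor of 2.38. All 7 fibroblast miRNAs were detected on all arrays, with summed levels of 11.24 to 11.63, 11.37 to 11.99 and 11.36 to 12.04 in the 3 groups and 0 of 7 called. Of these, 5 had a higher mean in MI than in Sham, and the median log2 ratio of the list was 0.56, against -0.04 over all 263 miRNAs. The highest were 0.79 for miR-21-5p, 0.73 for miR-199a-5p and 0.62 for miR-214-3p, none past the threshold, while the summed level is mostly that of the brighter miR-29 probes. On MI 3 each of the 3 lay within the Sham range. The means of the 2 that were not higher were 8.86 in Sham and 8.66 in MI for miR-29c-3p, and 9.08 and 9.07 for miR-29b-3p. Of the smooth muscle, endothelial, leukocyte and erythroid miRNAs none was called either, and miR-142-3p, miR-142-5p, miR-144-3p and miR-144-5p were detected on none of the arrays. Their part in the result for miR-133c was not tested.

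**Figure D5:**
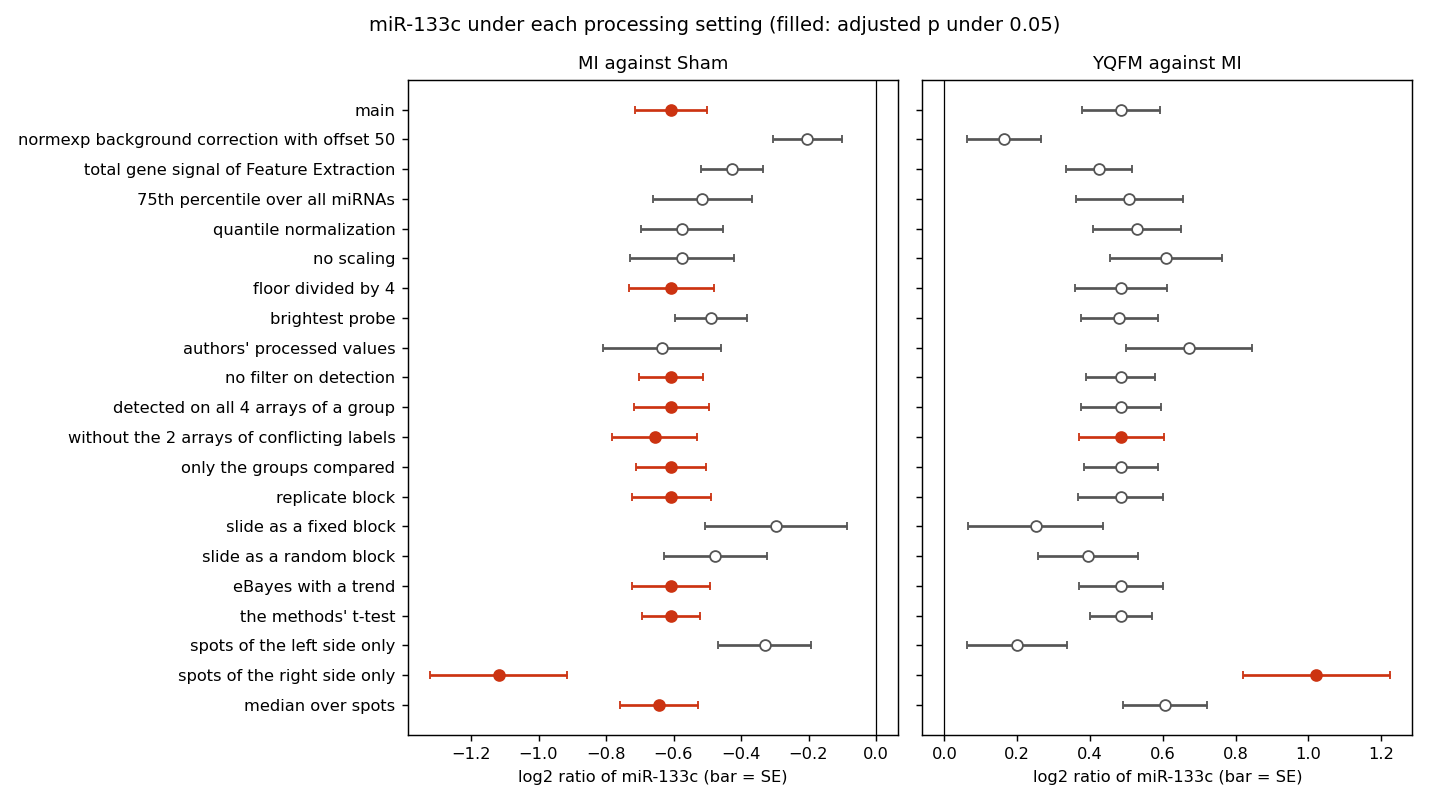
Log2 ratio of miR-133c (x axis, bars are SE) in MI against Sham and in YQFM against MI under each processing setting (y axis), with filled points where the adjusted p was under 0.05. In MI against Sham all points lie below 0, from -1.12 with right spots only to -0.20 with normexp, and in YQFM against MI all lie above 0.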

How the data were processed

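The authors deposited the scanner output of 12 single-colour arrays as spot intensity values, which Agilent Feature Extraction 10.7.1.1 had detrended and background-subtracted and had not scaled between arrays. A second deposited table holds the authors' intensities summed per miRNA, whose normalization is not given in the sources used here and which served as an alternative. The array annotation names the build rn4, and the sequences and coordinates printed are of GRCr8.

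Control and outlier spots were left out (902 to 1052 outlier spots of 12128 per array), spots were averaged by probe and probes by miRNA, and values were scaled, floored at 5.20 and put on the log2 scale. The 263 miRNAs detected on at least 2 arrays of a group were fitted over 12 arrays with limma 3.58.1 (R 4.3.3), Benjamini-Hochberg adjusted, after the procedure was tested on simulated data. The simulated noise was independent between arrays and had no slide effect, so it cannot speak to the tie of slide and group. In the data the consensus correlation between arrays of a slide was 0.46 (limma). Named miRNAs are the members, their hairpin and seed relatives, the marker lists, and the 3 most correlated miRNAs of each member. Members, pairs and lists were chosen with earlier results of these data known, and the split by columns after the spots were seen. Alternatives changed the background correction, signal column, scaling, floor, filter, probe summary, arrays, block, moderation, test and spots.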

Additional observations from a re-analysis of the deposited data

Results flagged for a closer look

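Sets of 4 arrays, each holding a value of a member or pair in a group, were checked, with shares of the summed signal among them. Of 60 sets, 3 had an array whose gap to the nearest other, divided by the range of the set, was above Dixon's 95% critical value for 4 samples. Chance flags about 1 in 20 of separate sets, and these sets are not independent, since they reuse the same signals. Within the MI group, the log2 ratio of miR-206-3p to miR-133b-3p on the same array, 2 miRNAs of 1 transcript, was -8.51, -8.53 and -8.52 on MI 1 to 3 and -8.85 on MI 4, a gap over range of 0.953. MI 4 is also the MI array outside slide 1 and 1 of the 2 arrays with a conflicting source name. The share of the summed signal taken by miR-206-3p was 0.0113% on Sham 2 and 0.0160% to 0.0167% on the other Sham arrays (0.873), and Sham 2 was the Sham array on which miR-206-3p was not detected. The share taken by miR-133c was 0.0395% on YQFM 1 and 0.0530% to 0.0554% on the other YQFM arrays (0.852), and YQFM 1 was the YQFM array on slide 2.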

How the results depend on the processing

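Signal over background and 4 arrays a group limit what these data detect, values near the floor have no firm order, slide is tied to group, and a miRNA that missed the threshold was not shown to be equal. The cause of each change under an alternative was not tested.

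Between MI and Sham, 1 member and 19 miRNAs were called. No member was called (0) under normexp, total gene signal, the 75th percentile over all miRNAs, no scaling, the brightest probe, the authors' values, slide as a fixed or random block, or left spots. The miRNAs called were 0 under normexp, total gene signal, no scaling, the authors' values and both slide blocks, 3 under the percentile over all miRNAs, 2 under quantile normalization and 2 with the brightest probe. They were 7 with no detection filter, 58 without MI 4 and Sham 4, 6 with the methods' t-test, 4 with left spots, 48 with right spots and 9 with the median over spots. Leaving out 1 array gave 4 to 62. Under quantile normalization the member called was miR-206-3p, at 0.60 (adjusted p = 0.0474), and miR-133c missed, at -0.57 (adjusted p = 0.0508, limma).

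Between YQFM and MI, where none was called, 1 member was called without MI 4 and Sham 4 and 1 with right spots. The miRNAs called were 2 under quantile normalization, 1 with the brightest probe, 28 without MI 4 and Sham 4 and 6 with right spots. Leaving out 1 array gave 0 to 1 members and 0 to 28 miRNAs.

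Deviations of same-numbered arrays from their group means had r from -0.64 to 0.32, with no test and no differently numbered arrays for reference. The numbers were not taken as pairs, and with the replicate block 10 miRNAs and 1 member were called between MI and Sham.

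Every value below is a log2 ratio that changed sign, and none had passed the test. For MI against Sham, miR-1-3p was 0.139 with total gene signal, 0.0509 with the percentile over all miRNAs, 0.205 with the brightest probe, 0.0105 without MI 4 and Sham 4, 0.0355 with slide as a fixed block and 0.0134 with right spots. MiR-206-3p was -0.0406 with right spots. MiR-133a-3p was -0.00751 with the authors' values, -0.000869 without MI 4 and Sham 4, and -0.0713 with left spots. MiR-133a-5p was 0.0635 with the brightest probe and 0.185 with slide as a fixed block, and miR-133b-3p was 0.00504 with total gene signal, 0.0655 with the brightest probe and 0.211 with slide as a fixed block. For YQFM against MI, miR-206-3p was 0.0142 with right spots and miR-133a-3p 0.0439 with the authors' values. MiR-133a-5p was 0.0982 with no scaling, 0.160 with the authors' values, 0.0548 without MI 4 and Sham 4, and 0.0366 with left spots. MiR-133b-3p was -0.0327 with total gene signal, -0.0987 with the brightest probe, -0.304 with slide as a fixed block and within slide 2, and -0.100 with slide as a random block. For YQFM against Sham, miR-206-3p was -0.191 with total gene signal, -0.00152 with slide as a fixed block and within slide 3, and -0.0264 with right spots. There miR-133a-3p was 0.0334 with no scaling and 0.0364 with the authors' values, miR-133b-3p 0.0501 under quantile normalization, 0.00843 with no scaling and 0.0114 with the authors' values, and miR-133c 0.0344 with no scaling and 0.0373 with the authors' values.

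Leaving out 1 array turned signs within these ranges. For MI against Sham they were -0.128 to 0.0661 for miR-1-3p, -0.0192 to 0.0806 for miR-133a-3p and -0.139 to 0.0103 for miR-1-3p over miR-133a-3p. For YQFM against MI they were -0.144 to 0.0548 for miR-133a-5p, -0.0386 to 0.0836 for miR-133b-3p and -0.111 to 0.0223 for miR-1-3p over miR-133a-3p. For YQFM against Sham they were -0.122 to 0.156 for miR-206-3p, -0.0515 to 0.00133 for miR-133b-3p over miR-133a-3p and -0.0650 to 0.0945 for miR-133c over miR-133a-3p.

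The median log2 ratio of all miRNAs moved by over 0.1 from the main setting under some alternatives. In MI against Sham it moved by 0.19 with the brightest probe and by 0.14 with total gene signal. There it also moved by -0.13 with slide as a fixed block, -0.11 with slide as a random block and -0.11 with right spots. In YQFM against MI it moved by 0.22 with the authors' values and by 0.11 with no scaling, and in YQFM against Sham by 0.19 and 0.14. In the latter it also moved by 0.11 with total gene signal, the percentile over all miRNAs and the brightest probe. Relative to that median, miR-133c in MI against Sham was -0.56 in the main setting, -0.56 with the authors' values and with no scaling, -0.52 with total gene signal and -0.63 with the brightest probe. It was smaller in size with slide as a random block (-0.32) or a fixed block (-0.12), with normexp (-0.18) and with left spots (-0.35), and larger with right spots (-0.97).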
